A study of Homo sapiens with 3 samples.

Results

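The HOX genes encode homeodomain transcription factors and lie in 4 clusters, HOXA on chromosome 7, HOXB on chromosome 17, HOXC on chromosome 12 and HOXD on chromosome 2. The 38 HOX genes examined here were taken by name out of 19866 protein-coding genes of the annotation. Peaks of the protein ARID1B were then taken from each cluster, from its first to its last listed gene, and from 100 kb on either side. These 4 windows held 10 of the 1792 peaks of replicate 1 and 20 of the 1820 peaks of replicate 2. ARID1B binding was measured by chromatin immunoprecipitation and sequencing in HEK293FRT, a line derived from the human embryonic kidney line HEK293, for which the labels give neither a treatment nor a genotype. Of the 3 samples, 2 were ARID1B replicates and 1 was an input, which was not analysed here. Nothing in the labels tells if these were separate cultures, so differences between them may be technical. All positions are on build hg38, and the score of a peak is the authors' own value, read here within its list. Sequencing depth is unknown, since the lists give no counts.

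ARID1B is a subunit of the BAF complexes, relatives of yeast SWI/SNF that use ATP to slide or remove nucleosomes. HOX genes of a cluster are all transcribed in the same direction, and their order along the chromosome matches the order in which they act along the body axis. Paralogue groups number the genes from head to tail: groups 1 to 3 are called anterior here, 4 to 8 central and 9 to 13 posterior. In fly genetics the Trithorax group, which includes SWI/SNF subunits, keeps HOX genes active and the Polycomb group keeps them silent.

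HOXA9 was the HOX gene with the highest-scoring region, and its promoter is shown because that region covers it. The promoters of HOXA4, whose region lay inside the gene, and of HOXA10, the next gene beyond HOXA9, are shown for comparison. Each runs from 250 bases before to 50 bases after an annotated start, is taken from RefSeq (GRCh38.p14), lies on the minus strand and reads 5′ to 3′ in the direction of transcription. Capitals mark bases inside the peaks of both replicates. The windows are chr7:27165488-27165787 for HOXA9, chr7:27130708-27131007 for HOXA4 and chr7:27179812-27180111 for HOXA10.
HOXA9: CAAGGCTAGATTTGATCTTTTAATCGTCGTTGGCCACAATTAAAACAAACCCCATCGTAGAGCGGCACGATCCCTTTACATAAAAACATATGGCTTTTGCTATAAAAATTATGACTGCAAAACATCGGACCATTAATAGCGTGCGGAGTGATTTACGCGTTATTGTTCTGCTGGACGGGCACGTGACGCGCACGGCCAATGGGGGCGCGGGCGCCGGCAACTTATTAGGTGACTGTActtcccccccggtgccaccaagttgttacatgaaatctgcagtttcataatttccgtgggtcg
HOXA4: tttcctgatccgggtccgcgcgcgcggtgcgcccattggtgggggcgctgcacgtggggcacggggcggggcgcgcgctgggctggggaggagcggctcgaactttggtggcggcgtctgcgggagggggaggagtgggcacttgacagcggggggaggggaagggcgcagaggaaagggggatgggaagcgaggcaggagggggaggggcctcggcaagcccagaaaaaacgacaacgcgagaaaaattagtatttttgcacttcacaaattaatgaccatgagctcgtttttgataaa
HOXA10: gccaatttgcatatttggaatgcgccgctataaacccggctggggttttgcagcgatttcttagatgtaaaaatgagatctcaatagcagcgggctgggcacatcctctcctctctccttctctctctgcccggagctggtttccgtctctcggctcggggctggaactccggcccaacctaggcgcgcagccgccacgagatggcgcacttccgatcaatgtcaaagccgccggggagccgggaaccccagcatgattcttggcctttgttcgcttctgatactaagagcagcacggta

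In HOXA9, 237 of the 300 bases lay in peaks of both replicates, and those outside were the bases around and after the start. In HOXA4 and HOXA10 no base did, and the nearest region began 453 and 13546 bp away. Promoters of 20 of the 38 genes were in the RefSeq table. Among these 20, HOXA9 was the 1 gene with a region of both replicates on a promoter. The background was 0.757% of 15843 protein-coding genes with a promoter in the table. HOXB3, HOXB4 and HOXB5 had no promoter in the table and could not be counted. A shared region lay across the outermost start of HOXB3, so HOXA9 stands alone only among the genes in the table. Motifs were searched on both strands of 1 promoter per HOX gene in the table, with the HOXA9 sequence in view when the motifs were chosen. The letters TGATTTAN, a form bound by PBX and posterior HOX proteins together, occurred in HOXA9 alone, as TGATTTAC from base 149. They occurred in 2.16% of all 22199 promoters of protein-coding genes in the table. The E-box CACGTG stood at base 180 of the HOXA9 promoter and occurred in 8 of the 20 HOX promoters, against 8.34% of all. CCAAT, the box bound by NF-Y, stood at base 196 and occurred in 17 of 20, against 34.7%. HOXC4 and HOXC5 share the same promoter window and both hold it. Apart from HOXA9, genes holding the E-box or CCAAT had no shared region on a promoter. Genes of HOXD were among the holders of each. The GC box GGGCGG, which SP factors bind, was in 10 of 20, against 56.3%, and not in HOXA9. The AP-1 letters TGANTCA were in 0 of 20, against 6.15%. None of these motifs overlaps another in the HOXA9 promoter. GC content was 48.0% in HOXA9, 63.3% in HOXA4 and 56.7% in HOXA10, and ranged from 46.3 to 76.3% over the 20 HOX promoters (median 58.0%; all promoters 62.3%).

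Along the clusters, ARID1B peaks of both replicates lay in HOXA, HOXB and HOXC, and HOXD had no peak in either list. Peaks that overlap between the lists by at least 1 bp were joined into shared regions. There were 3 such regions in HOXA, 3 in HOXB and 3 in HOXC, which together make up 9 of the 1312 shared regions on chromosomes with gene annotation. All 30 peaks of both lists lay between the first and last listed gene of a cluster, and the 800 kb of flanks held 0. Over the 520.6 kb of the clusters themselves the density was 1.73 shared regions per 100 kb. It was 3.01 in HOXA (99.7 kb), 2.56 in HOXC (117.2 kb), 1.5 in HOXB (200.2 kb) and 0 in HOXD (103.4 kb). Over the annotated span of the genome it was 0.0435 per 100 kb. The clusters hold 38 HOX genes in 520.6 kb, against 19866 protein-coding genes in 3016 Mb. These densities do not allow for that closer packing, and the cluster lengths leave out the 800 kb of flanks. The HOXB length includes the long stretch between HOXB9 and HOXB13, which held no peak and lowers the HOXB density. The difference between clusters rests on 3 or 0 regions each and was not tested.

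**Figure D1:**
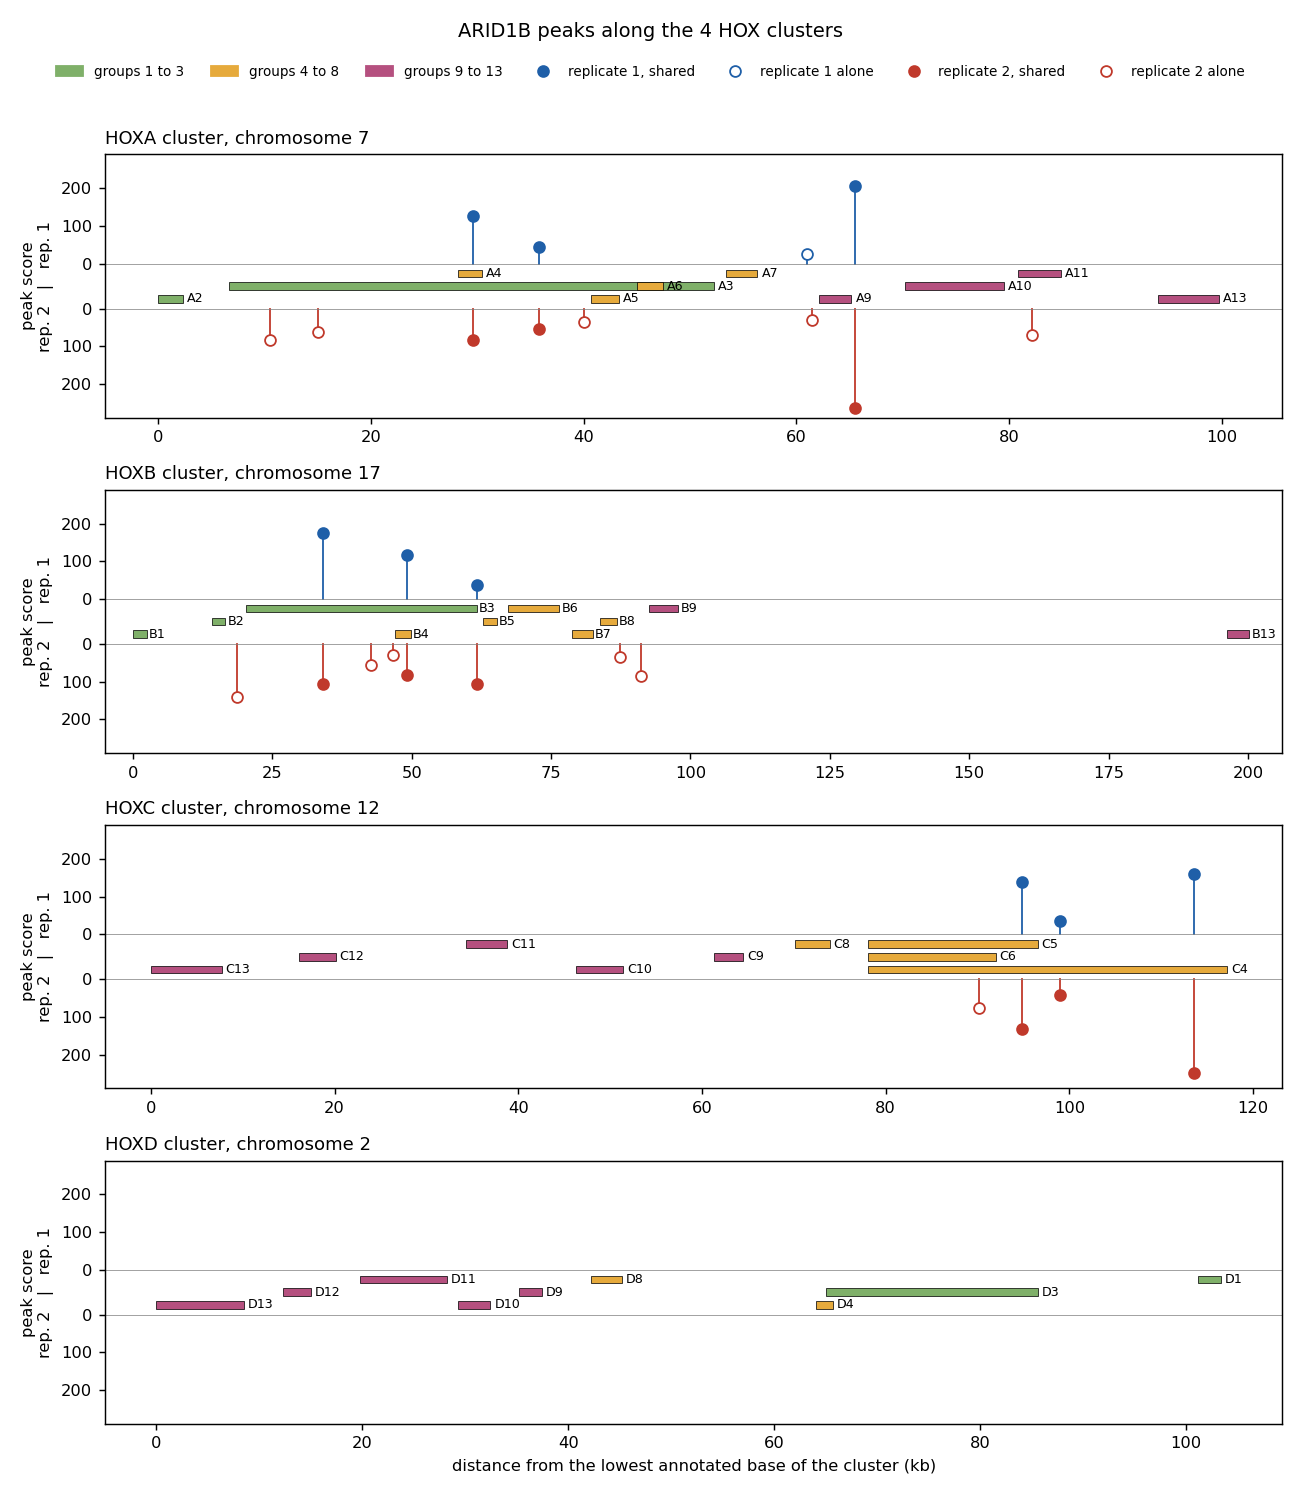
Score of each ARID1B peak (vertical axis, replicate 1 upward in blue and replicate 2 downward in red) against its distance in kb from the lowest annotated base of the cluster, for the 4 HOX clusters. Filled circles are peaks found in both replicates and open circles peaks of 1 replicate; bars are the annotated spans of the genes, coloured by paralogue group. The 9 shared regions sit in HOXA, HOXB and HOXC, 11 peaks belong to replicate 2 alone, and HOXD is empty.

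In HOXA the peaks ran from HOXA3 to HOXA11, and the strongest stood at the start of HOXA9. HOXA9, a posterior gene that is also known as a regulator of blood stem cells and leukaemia, had scores of 205 in replicate 1 and 264 in replicate 2 at chr7:27165505-27166266. Those scores stood at percentiles 89.9 and 94.0 of their lists, the highest pair among the 9 HOX regions. The same bases belong to HOXA10-HOXA9, a readthrough gene annotated across both. The region reached from 729 bp upstream of the annotated start to 32 bp downstream, and the replicate 1 peak ended 14 bp upstream of it. HOXA4, a central gene, had scores of 127 and 83 at chr7:27129689-27130255. That region began 502 bp downstream of the start and lay inside the gene. The remaining HOXA region, at chr7:27136034-27136318, had scores of 43 and 55. It lay between HOXA4 and HOXA5, inside the long annotated span of HOXA3, and 4734 bp from the end of HOXA5. Its percentiles of 19.2 and 32.0 were low in both lists.

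Other HOXA peaks came from 1 replicate. On the downstream side of HOXA9, replicate 1 had a peak of score 26 at chr7:27161288-27161487, 951 bp from the end of the gene. Replicate 2 had one of score 30 at chr7:27161695-27161918, 520 bp from it. The 2 peaks did not overlap and count as separate. Replicate 2 also had peaks of 83 and 63 inside HOXA3, of 35 at the end of HOXA5 (572 bp away) and of 69 inside HOXA11, 1226 bp from its end. The HOXA genes with no peak of either list within 1000 bp of an end were HOXA2, HOXA3, HOXA6, HOXA7, HOXA10, HOXA11 and HOXA13. Measured from the nearer gene end, their distances to a shared region ran from 4.34 kb at HOXA10 to 28.1 kb at HOXA13. HOXA7 lay at 8.83 kb and HOXA6 at 9.08 kb. HOXA3 lay at 12.9 kb by this measure, though its span held 2 shared regions. HOXA5 is best known for its part in lung development and HOXA11 for limb and uterus development.

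HOXB had the same number of shared regions in a longer cluster, whose stretch between HOXB9 and HOXB13 held no peak. The annotated span of HOXB3 held 2 of them whole and part of the third. The highest in replicate 1, at chr17:48562461-48562855, scored 175 and 106 and lay away from every HOX gene end, 12652 bp from the end of HOXB4. HOXB4, a central gene used to expand blood stem cells in culture, had scores of 117 and 83 at chr17:48577573-48577838. That region began 512 bp downstream of its start. The third, at chr17:48590140-48590481, scored 37 and 106 and lay across the outermost start of HOXB3. It also lay 776 bp from the end of HOXB5, since HOXB5 is the next gene upstream. This region stood at percentile 12.9 in replicate 1 and at 69.4 in replicate 2, the widest gap of the 9.

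Replicate 2 alone had 5 more HOXB peaks. The highest of them, 140 at chr17:48547018-48547353, stood at percentile 78.9 between HOXB2 and HOXB3, inside the antisense RNA gene HOXB-AS1. The others scored 57 inside HOXB3, 29 at 123 bp from the end of HOXB4, 34 at 515 bp upstream of HOXB8 and 85 between HOXB8 and HOXB9. HOXB8 is a central gene also known for blood progenitors. Of the HOXB genes with no peak at an end, HOXB6 lay 5.27 kb, HOXB7 16.8 kb and HOXB2 17.4 kb from a shared region. HOXB1, which patterns the hindbrain, lay 31.4 kb and HOXB9 30.7 kb away. HOXB13, a posterior gene active in the prostate and set apart from the rest of its cluster, was 134 kb from the nearest shared region.

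The shared HOXC regions all lay inside the annotated span of HOXC4, and 1 of them also inside that of HOXC5. These central genes share an outermost start with HOXC6, whose span held no shared region and whose nearest one was 2.66 kb away. The highest, at chr12:54052115-54052578, scored 161 and 250 (percentiles 84.9 and 93.2) and lay in HOXC4, 3452 bp from its end. The next, at chr12:54033485-54033873, scored 139 and 131 and lay in HOXC5 and HOXC4, 1488 bp from the end of HOXC5. The third, at chr12:54037634-54037883, scored 35 and 41, at percentiles 10.7 and 17.7. Replicate 2 added a peak of 76 inside HOXC6, 1648 bp from its end. The annotation used gives 1 span per gene, so starts of shorter transcripts within these spans were not tested against the peaks. HOXC8 to HOXC13 had no peak, and the distance to the nearest shared region was 20.7 kb for HOXC8, 30.1 kb for HOXC9, 43.2 kb for HOXC10, 55.8 kb for HOXC11, 74.5 kb for HOXC12 and 86.9 kb for HOXC13, a hair follicle gene. The HOXC regions thus all lay at the low-numbered end of the cluster.

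HOXD, whose posterior genes pattern the digits and genitalia, had no peak within 100 kb. The nearest peak of replicate 1 scored 29 and lay inside MTX2, a mitochondrial protein gene, 106 kb beyond HOXD1. The nearest peak of replicate 2 belonged to a shared region at chr2:175806947-175807549, 280 kb beyond HOXD13, where it scored 306. Distances from the 9 HOXD genes to that region ran from 280 to 381 kb.

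Counted by gene, 5 of the 38 HOX genes had a shared region within 1000 bp of either annotated end (13.2%, exact Clopper-Pearson 95% interval 4.41 to 28.1), where 1.05% of all protein-coding genes did. They were HOXA4, HOXA9, HOXB3, HOXB4 and HOXB5. HOXB5 and HOXB3 shared 1 region, so the 5 genes rest on 4 regions. The gene just inside the threshold was HOXB5 at 776 bp and the gene just outside it was HOXC5 at 1488 bp. Replicate 1 alone gave the count of 5 (background 1.14%), and replicate 2 alone gave 7 (18.4%, 7.74 to 34.3; background 1.80%), with HOXA5 and HOXB8 added. A peak of either list likewise lay at 7 genes (background 1.89%). By the direction of each cluster 4 of the 5 genes were reached at the start, and HOXB5 was reached at the end. Genes of a cluster are neighbours and not independent, so these intervals are too narrow and no p-value was computed.

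Regions near HOX genes came in groups. Within 100 kb of the gene, 28 of 38 HOX genes had a shared region (73.7%, 56.9 to 86.6; background 11.8%). As many as 27 had 3 or more (71.1%, 54.1 to 84.6), where 0.534% of protein-coding genes did. The exceptions with none were HOXB13 and the 9 HOXD genes, and HOXC13 had 2. Neighbouring shared regions of a cluster were separated by 5.78 and 29.2 kb in HOXA, by 14.7 and 12.3 kb in HOXB and by 3.76 and 14.2 kb in HOXC. Genes of a cluster count the same 3 regions, so the shares describe 3 places and not 28 separate ones.

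**Figure D2:**
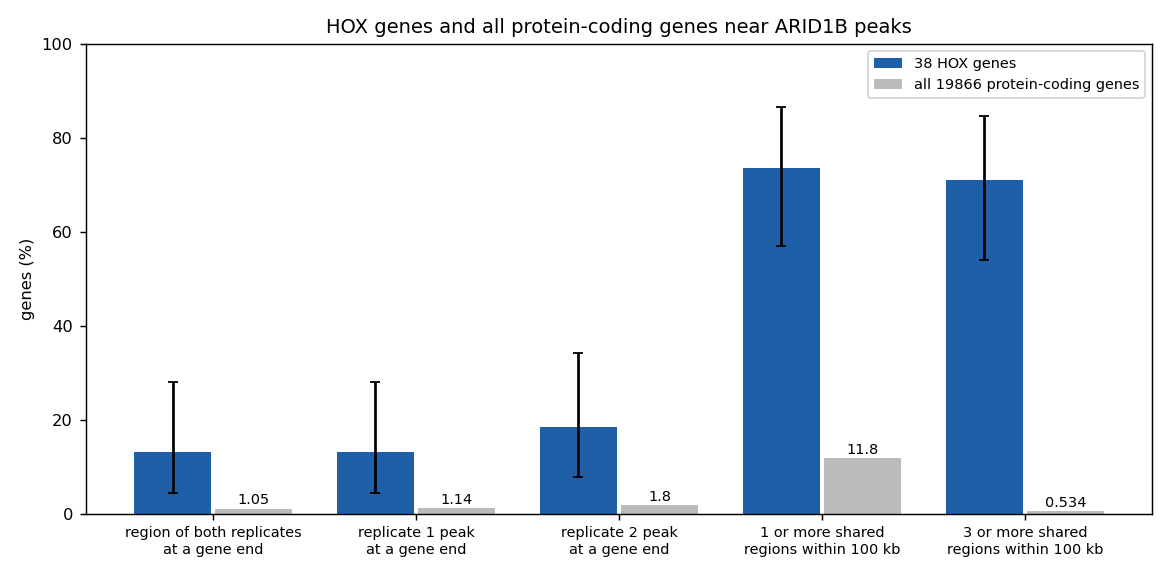
Share of genes (%) near ARID1B peaks by 5 rules, for the 38 HOX genes (blue, error bars are exact Clopper-Pearson 95% intervals for counting error) and for all 19866 protein-coding genes (grey). The HOX share is 13.2% against 1.05% for shared regions at a gene end and 73.7% against 11.8% for a shared region within 100 kb.

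By paralogue class, the median distance from either end to the nearest shared region was 5.27 kb for the 15 central genes, 27.0 kb for the 7 anterior genes and 65.2 kb for the 16 posterior genes. The classes are unevenly spread over the clusters: HOXD, far from any region, gave 5 of the posterior, 2 of the central and 2 of the anterior genes. Without HOXD the medians were 4.73 kb for 13 central, 17.4 kb for 5 anterior and 30.7 kb for 11 posterior genes, so the posterior value moved most and the order stayed. A shared region stood at an end of 3 of 15 central genes (20%, 4.33 to 48.1), 1 of 7 anterior genes (14.3%, 0.361 to 57.9) and 1 of 16 posterior genes (6.25%, 0.158 to 30.2). These intervals overlap, and a difference between the classes was not tested. In group 4 the regions of HOXA4 and HOXB4 began at nearly the same distance inside the gene, 502 and 512 bp from the start. HOXC4 held 3 shared regions, none within 1000 bp of its annotated ends, and HOXD4 was 344 kb from any. In group 9, HOXA9 had its region at the start, while HOXB9 and HOXC9 were 30.7 and 30.1 kb away and HOXD9 was 315 kb away. Posterior genes of HOXA lay nearer to shared regions than those of the other clusters, from 0 at HOXA9 to 28.1 kb at HOXA13. For each of them the nearest was the region at HOXA9, so this rests on 1 region. HOXA13 was only a little nearer than HOXC9 at 30.1 kb.

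**Figure D3:**
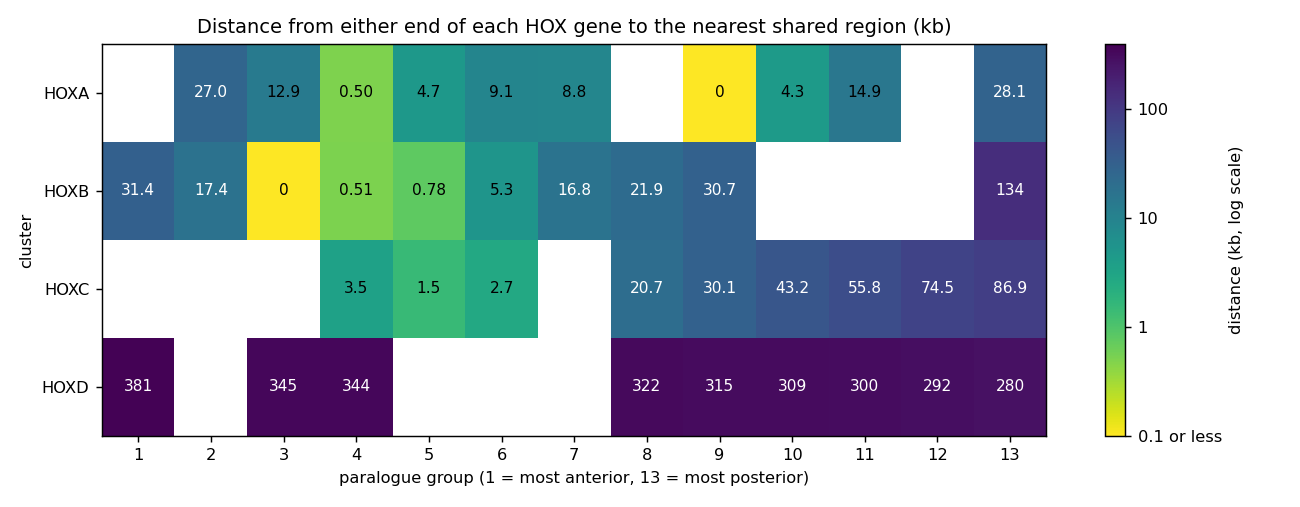
Distance in kb (number and colour, log colour scale) from either annotated end of each of the 38 HOX genes to the nearest shared region, by cluster (rows) and paralogue group (columns); blank cells hold no gene examined here. HOXA9 and HOXB3 are at 0, HOXA4 and HOXB4 at 0.502 and 0.512 kb, and the 9 HOXD genes between 280 and 381 kb.

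By position, 4 of the 9 shared regions lay at a HOX gene end (44.4%, exact 95% interval 13.7 to 78.8) and 5 inside an annotated HOX gene away from its ends (55.6%, 21.2 to 86.3). None was classed as between HOX genes, since a region inside any annotated HOX span counted as inside. The region between HOXA4 and HOXA5 was thus counted as inside HOXA3. Among all 1312 shared regions, protein-coding gene ends held 12.5% (10.8 to 14.4) and the insides of such genes 43.9% (41.2 to 46.6). HOX genes are packed more densely, with 38 in 520.6 kb against 19866 protein-coding genes in 3016 Mb. More of a HOX cluster therefore lies near a gene end, which these shares do not allow for. For gene ends and for gene bodies alike, the interval of the HOX regions overlapped that of all regions, and the difference was not tested. The regions inside genes lay in 3 long spans, those of HOXA3 (45574 bp), HOXB3 (41372 bp) and HOXC4 (39143 bp). Each contains other HOX genes: HOXA4, HOXA5 and HOXA6 in HOXA3, HOXB4 in HOXB3, and HOXC5 and HOXC6 in HOXC4. Of the 11 peaks of replicate 2 alone, 4 lay at a HOX gene end, 5 inside a HOX gene and 2 between HOX genes.

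The replicates differed in how many HOX peaks they had. Of the 10 peaks of replicate 1, 9 were found in replicate 2 (90.0%, exact 95% interval 55.5 to 99.7), and elsewhere in the genome 73.4% were (71.3 to 75.4). Of the 20 peaks of replicate 2, 9 were found in replicate 1 (45.0%, 23.1 to 68.5), against 72.7% elsewhere (70.5 to 74.7). Put the other way, 11 of the 12 HOX peaks of 1 replicate came from replicate 2 (91.7%, 61.5 to 99.8), while elsewhere 492 of 966 did (50.9%, 47.7 to 54.1). The intervals overlap for the peaks of replicate 1, and do not for those of replicate 2 or for the peaks of 1 replicate. Peaks of a cluster are not independent, and these differences were not tested. The lists are of nearly equal length, and read depth behind them is unknown.

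Scores of the shared HOX regions ranged from low to high within their lists. In replicate 1 they ran from 35 to 205 with a median of 127, and in replicate 2 from 41 to 264 with a median of 106. The median over all 1312 shared regions was 91 in each list, and the highest scores there were 1537 and 1642. Of the 9 regions, 6 stood at or above the median of all peaks in both lists, which was 74 in replicate 1 and 75 in replicate 2. The 11 HOX peaks of replicate 2 alone ran from 29 to 140 with a median of 63, where all 503 peaks of replicate 2 alone had a median of 50.

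**Figure D4:**
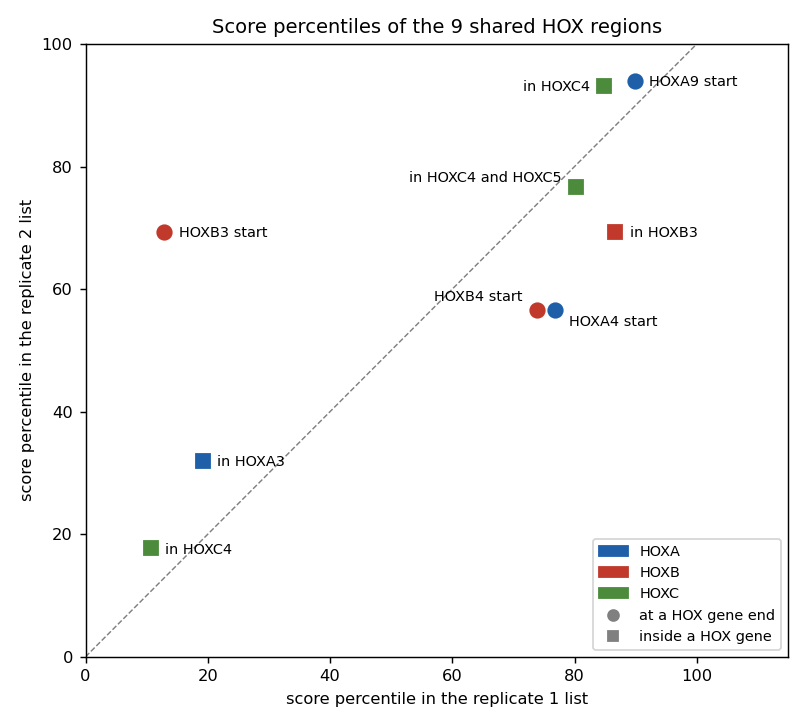
Percentile of the score within the replicate 1 list (horizontal) and the replicate 2 list (vertical) for the 9 shared HOX regions, coloured by cluster, with circles at HOX gene ends and squares inside HOX genes; the dashed line marks equal percentiles. The HOXA9 region (89.9 and 94.0) is highest and the HOXB3 start region (12.9 and 69.4) lies farthest from the line.

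Among the non-coding RNA genes of the clusters, 4 of 23 listed had a shared region within 1000 bp of an end, where 0.622% of all long non-coding and micro RNA genes did. They were HOXA-AS2, HOXB-AS2, HOXB-AS3 and MIR615, and each was near a region already described. The HOXA4 region lay 929 bp from HOXA-AS2, and the replicate 2 peak at the HOXB3 start overlapped HOXB-AS3. The HOXB region of highest replicate 1 score lay 484 bp from HOXB-AS2. Replicate 2 peaks also overlapped HOXA-AS3 (score 35) and HOXB-AS1 (140). No peak reached HOTAIR, HOTTIP, HOTAIRM1 or HAGLR, long RNAs known for regulating HOX genes.

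The HOXC5 region ended 77 bp before the microRNA gene MIR615, which lies in an intron of HOXC5. MIR10A lay 2000 bp from the HOXB4 region and MIR196B 3214 bp from the HOXA9 region. These 3 were the microRNA genes of the clusters nearest to shared regions, and 1 mature RNA of each is shown (RefSeq, GRCh38.p14), with the seed, bases 2 to 8, in capitals. MicroRNAs of the miR-10 and miR-196 families are known to repress HOX messages.
hsa-miR-615-3p: uCCGAGCCugggucucccucuu
hsa-miR-10a-5p: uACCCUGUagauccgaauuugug
hsa-miR-196b-5p: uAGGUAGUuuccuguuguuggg

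The seeds of these RNAs differ. That of hsa-miR-196b-5p is also the seed of hsa-miR-196a-5p, whose genes MIR196A1 in HOXB and MIR196A2 in HOXC lay 42.0 and 41.6 kb from a shared region. MIR10B in HOXD, the paralogue of MIR10A, was 343 kb from one. No RNA was measured in these samples, so neither the transcription of these genes nor markers of the cell line were checked.

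Genes that act with or on HOX genes had no shared region at an end. The count was 0 of 11 cofactor genes (the PBX, MEIS, PKNOX and TGIF families) and 0 of 8 relatives and neighbours, among them EVX1, EVX2 and the CDX genes. It was also 0 of 28 regulators (background 1.05%). At that background, lists of this size would mostly hold none, so these counts say nothing particular about the listed genes. KMT2A, a Trithorax-group methyltransferase gene of H3K4, was the 1 regulator of 28 with a replicate 2 peak within 1000 bp of an end (score 56, background 1.80%). Peaks inside these genes, away from the ends, were looked at after their values were seen. The share of all protein-coding genes that hold such a region was not computed, so those named are not compared with a background. Of all 1312 shared regions 43.9% lay inside protein-coding genes, and MEIS2, KDM6A and RARB have long annotated spans. Shared ones lay in MEIS2 (scores 149 and 73), in KDM6B (98 and 146) and KDM6A (30 and 78), which encode H3K27 demethylases, and in RARB, a retinoic acid receptor gene, at 2 places (30 and 30, and 35 and 41). PBX3 held 4 peaks in replicate 1, with scores of 30 to 116, and 0 in replicate 2.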

How the data were processed

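ARID1B peaks of 2 ChIP replicates were read from 1 deposited list each. Tools named in the submitters' processing notes were MACS2 2.1.2, Bowtie2 2.3.4.1 and bcl2fastq 2.20.0.422, with hg38 as the genome build. How they were set, the cutoff for a peak, what the input was used for and how duplicate reads were treated is not given in the sources used here. The deposited score of each peak is a whole number of unstated scale, so scores were ranked only within a list.

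Starts were converted to count from 1. Gene spans came from a RefSeq table of GRCh38.p14, the assembly named hg38, without 794 rows on other sequences. The direction of each cluster was taken from those of its genes in the RefSeq promoter table. All 38 genes matched by symbol. A gene end is either annotated end, with a window of 1000 bp. Shares carry exact Clopper-Pearson 95% intervals (scipy 1.17.1, Python 3.11), which cover counting error only. With 1 condition no group test was possible. Overlap and gene-end counting were tested on simulated data.

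HOX genes, gene lists and settings were chosen with earlier results of these data known. Every HOX gene with a peak at an end, every listed gene with a shared region at an end and every listed non-coding RNA gene overlapped by a peak were to be named. Alternatives were windows of 500, 2000 and 5000 bp, starts only, peaks at or above the median score of their list, 50% reciprocal overlap, centres within 200 bp, other flank lengths and each list alone.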

Additional observations from a re-analysis of the deposited data

How the results depend on the processing

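The 9 shared regions of the HOX windows stayed at 9 with 50% reciprocal overlap, centres within 200 bp, no flank and flanks of 50 and 200 kb, and were 6 among peaks at or above the median score of their list. Each list alone gave 10 peaks (replicate 1) and 20 peaks (replicate 2), and 5 and 7 HOX genes with a peak at an end. The 5 HOX genes with a shared region at an end became 2 within 500 bp, 10 within 5000 bp, 3 among peaks at or above the median score and 2 when only starts in the promoter table counted. With all starts, by the direction of the cluster, an alternative added after the data were seen, there were 4. The 4 regions at a HOX gene end became 2 within 500 bp and 8 within 5000 bp, and the lists alone gave 5 (replicate 1) and 8 (replicate 2). The share of replicate 1 peaks found in replicate 2 rose from 90.0% to 100% (6 of 6) among peaks at or above the median score. Without HOXD, a setting also added after the data were seen, the median distance to a shared region moved from 27.0 to 17.4 kb for anterior and from 65.2 to 30.7 kb for posterior genes. Of the alternative values, 30 stayed and 11 did not stay within 1.5 times the main count or median or within the interval of the main share. Wider windows count more genes and higher score limits fewer peaks by construction. Read depth is unknown, so a missing peak, as throughout HOXD, shows only that none was listed.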
